A study of Mus musculus with 11 samples.

Results

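The tubulin isotypes described here are the genes Tuba1a, Tuba1b, Tuba4a, Tubb2a, Tubb2b, Tubb3, Tubb4a, Tubb4b, Tubb5 and Tubb6, 3 encoding alpha-tubulins and 7 encoding beta-tubulins. They were taken by symbol from a table of 20888 genes, and all 10 were found and passed the filter on low values. RNA of lumbar spinal cord had been sequenced in C57BL/6 mice aged 10 months, in a study of a CMT2A model. CMT2A is the axonal form of Charcot-Marie-Tooth disease that arises from MFN2 mutations. The groups were MFN2-R94Q:MFN1 mice (n = 5), which carry mutant MFN2 together with MFN1, MFN2-R94Q mice (n = 3), which carry the mutant alone, and nontransgenic mice (nTg, n = 3). MFN2 and MFN1 are mitofusins, proteins that join the outer membranes of mitochondria. The promoters and species of the transgenes, the number of founder lines and the sex of the mice were not stated in the labels. No group carries MFN1 alone, and none carries a wild-type MFN2 transgene.

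Values are RPKM as the authors deposited them, that is, read counts divided by gene length and by the total of the library. They are relative levels: in bulk tissue, fewer cells of a type and less RNA per cell cannot be told apart. Depth recovered from the steps between low values was 30.7 to 72.0 M reads per library. MFN2-R94Q replicate 2 stood apart from its group, with a median absolute log2 deviation over all tested genes of 0.107, against 0.0906 and 0.0622 in the other MFN2-R94Q libraries, 0.0482 to 0.0583 in MFN2-R94Q:MFN1 and 0.0567 to 0.0591 in nTg. The isotype tests, the list counts and the shares are also given without it, where the refit of the lists was added once the data had been examined. MFN2-R94Q:MFN1 replicate 3 stood apart in a Schwann cell gene: Prx, which codes for periaxin of peripheral nerve, was at 1.15 RPKM there, against at most 0.166 RPKM in the rest of its group, 0.131 RPKM in MFN2-R94Q and 0.130 RPKM in nTg. Mouse Mfn1 was at 24.2 to 25.6 RPKM in MFN2-R94Q:MFN1, 25.8 to 26.6 RPKM in MFN2-R94Q and 24.2 to 25.5 RPKM in nTg, so MFN2-R94Q lay above the others, while Mfn2 (43.3 to 47.7 RPKM over all libraries) overlapped between the groups. These mouse genes do not check the genotype labels. Markers of neurons, oligodendrocytes, astrocytes and microglia were all in the table, with none at 0 in all libraries of a group. Other neural tissue could meet this as well, so it does not check the label of spinal cord.

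Microtubules are hollow filaments built from dimers of 1 alpha- and 1 beta-tubulin. In axons they are the tracks on which kinesins and dynein carry mitochondria and other cargo, and in oligodendrocytes they support the extension of myelin sheets. Mammals encode each tubulin in several genes whose proteins, the isotypes, are nearly identical in the globular body and differ mostly in a short acidic tail at the C-terminus. The tail lies on the microtubule surface, where motors and microtubule-associated proteins bind and where enzymes add glutamates or remove the last tyrosine. Tubulin mRNA levels are also set by autoregulation: free tubulin dimers lead to decay of tubulin mRNAs as they are translated, through recognition of the first few residues of the new chain.

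The ends of the coding sequences are shown, for 1 alpha and 6 beta isotypes, because tubulin isotypes mostly differ there. Each line gives the last 60 coding bases, 5′ to 3′, from GENCODE M21 transcripts (GRCm38), with the last codon before the stop in capitals.
Tuba4a: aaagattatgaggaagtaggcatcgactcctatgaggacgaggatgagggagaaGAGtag
Tubb2a: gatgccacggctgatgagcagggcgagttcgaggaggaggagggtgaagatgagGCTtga
Tubb2b: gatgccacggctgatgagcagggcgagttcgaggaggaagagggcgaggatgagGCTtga
Tubb3: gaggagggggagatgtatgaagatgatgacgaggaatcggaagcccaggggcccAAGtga
Tubb4a: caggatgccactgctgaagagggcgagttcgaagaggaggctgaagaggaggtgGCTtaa
Tubb4b: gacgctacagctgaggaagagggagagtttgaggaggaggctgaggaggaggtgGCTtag
Tubb5: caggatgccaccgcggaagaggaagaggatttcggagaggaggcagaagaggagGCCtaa
Tuba4a ends in the glutamate codon GAG and so encodes no final tyrosine, the residue that detyrosination removes from other alpha-tubulins. Of the beta isotypes shown, all but Tubb3 end in an alanine codon (GCT or GCC), and Tubb3 ends in the lysine codon AAG. The ends shown for Tubb2a and Tubb2b differ only at bases that leave the encoded residues the same. Over the whole coding sequence Tuba1a and Tuba1b were 98.3% identical and Tubb2a and Tubb2b 96.5%, while the other pairs of the 6 beta isotypes shown were 81.2% to 84.5% identical.

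That likeness bears on the values. Of the 50-base windows of the transcript, 43.4% in Tuba1a were shared with Tuba1b, 45.6% in Tubb2a with Tubb2b, and 43.6% in Tubb4b with the pseudogene Tubb4b-ps1. Tuba1c shared more, 46.9% of the windows of Tuba1a and 59.3% of those of Tuba1b. With any other gene, 72.9% of the windows of Tuba1a, 73.8% of Tuba1b, 49.6% of Tubb2a, 39.3% of Tubb2b and 50.9% of Tubb4b were shared. In Tuba4a, Tubb3, Tubb4a, Tubb5 and Tubb6 the share was at most 1.1%. The labels do not say how reads that match several genes were assigned, so the split within Tuba1a and Tuba1b, within Tubb2a and Tubb2b, and the level of Tubb4b are uncertain, as is the split of both alphas with Tuba1c. The members lie on 7 chromosomes (GRCm38). Tuba1a (chr15:98949847-98953501) and Tuba1b (chr15:98931429-98934390) are neighbours, as are Tubb2a (chr13:34074278-34078008) and Tubb2b (chr13:34127008-34130354). Tubb4a (chr17:57080061-57087600) and Tubb5 (chr17:35833920-35838301) share a chromosome at a distance. Tuba4a (chr1:75214972-75221261), Tubb3 (chr8:123411553-123422015), Tubb4b (chr2:25222158-25224702) and Tubb6 (chr18:67390731-67402749) lie alone.

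Most isotypes were among the most abundant mRNAs of the cord. In nTg, Tuba1b ranked 16 and Tuba1a 17 of 20888 genes by mean RPKM, Tubb4a 36, Tubb3 72, Tubb2a 103, Tubb4b 118, Tuba4a 221, Tubb5 307, Tubb2b 840 and Tubb6 8436. The 10 together made up 1.03% ± 0.019 of all summed RPKM in MFN2-R94Q:MFN1, 0.928% ± 0.046 in MFN2-R94Q and 1.06% ± 0.015 in nTg (SD). Between neighbours in this order the nTg ranges were apart except for Tuba1b and Tuba1a and for Tubb2a and Tubb4b. Among the alphas, Tuba1a, the alpha isotype most tied to neurons, lay above Tuba1b, which is expressed in most cell types, in 5 of 5 MFN2-R94Q:MFN1 libraries, and below it in 3 of 3 MFN2-R94Q and 2 of 3 nTg libraries. Tubb4a, which is abundant in oligodendrocytes and whose human mutations cause loss of myelin, was the highest beta isotype in every library, followed by Tubb3, which marks neurons. Tubb6, an isotype of low level in nervous tissue, had roughly 252 to 758 reads per library, against 3060 to 10100 for Tubb2b and at least 10400 for each of the others, and so rests on the fewest reads.

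**Figure D1:**
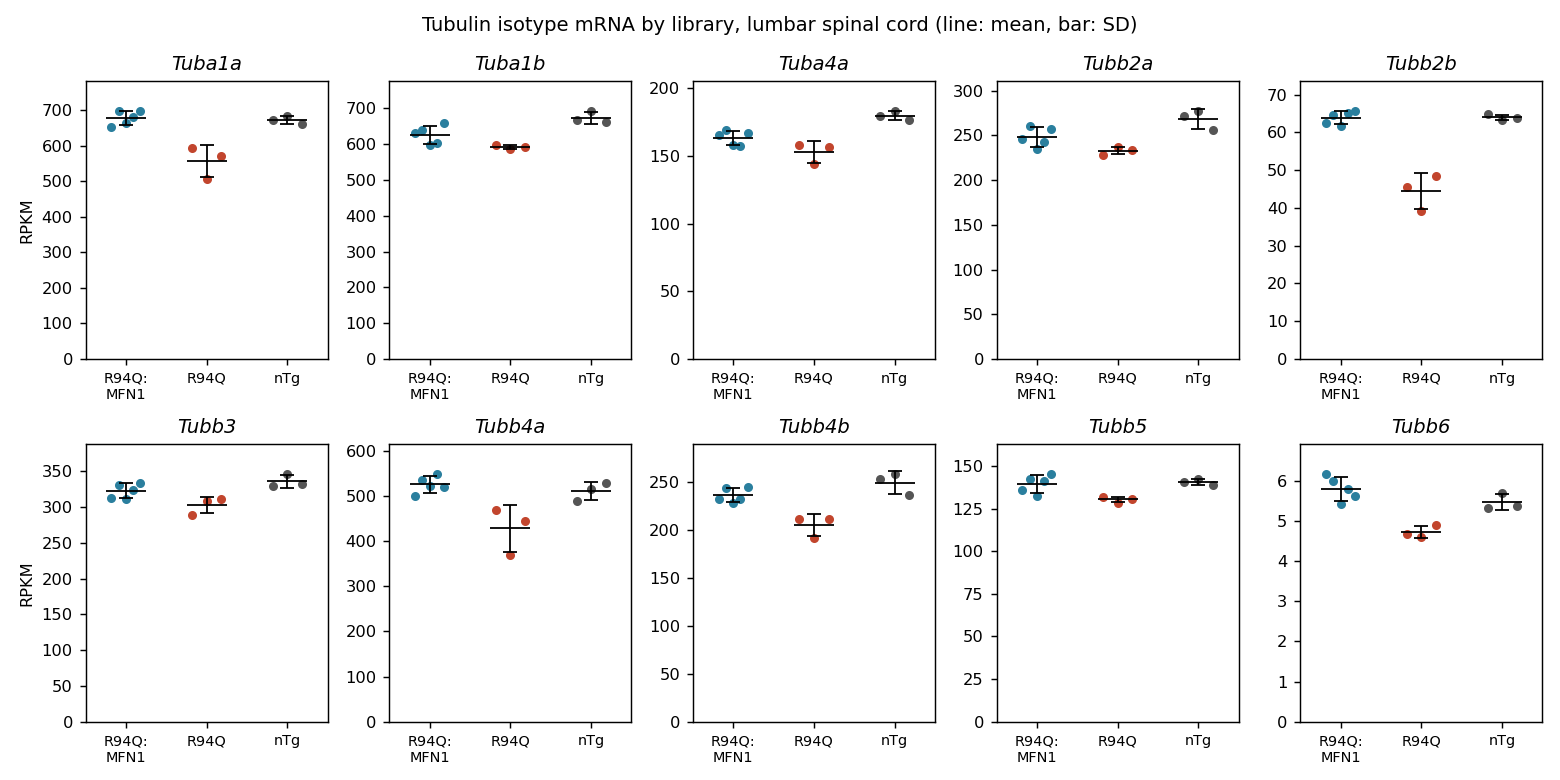
RPKM of each isotype in each library, for MFN2-R94Q:MFN1 (R94Q:MFN1, n = 5), MFN2-R94Q (R94Q, n = 3) and nTg (n = 3), with 1 panel per gene; points are libraries, lines the group mean and error bars the SD. The 3 MFN2-R94Q points lie under all nTg points in all 10 panels, and as a ratio of means the gap is widest in Tubb2b, at 39.2 to 48.4 RPKM against 63.2 to 64.8 RPKM in nTg.

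Comparison of MFN2-R94Q with nTg asks how mice with the mutant mitofusin alone differ from nontransgenic mice. Without a wild-type MFN2 group, effects of the mutation and of carrying a transgene cannot be told apart. With MFN2-R94Q, 9 of the 10 isotypes fell and none rose, by limma on log2(RPKM + 0.5) at an adjusted p under 0.05. Of all 14347 genes tested, 10.4% were called lower and 7.5% higher, 17.9% in all. The median log2 fold change over the isotypes was -0.22, against -0.00241 over all tested genes. In all 10, every MFN2-R94Q library was below every nTg library, which held for 19.1% of tested genes. The exact two-sided permutation p was 0.1 for each, the smallest that 3 against 3 allow.

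The alpha isotypes all fell. Tuba1a had 593, 505 and 572 RPKM in MFN2-R94Q, against 671, 683 and 661 RPKM in nTg, with replicate 2 the lowest of the MFN2-R94Q libraries. Its log2 fold change was -0.27 (SE 0.052, adjusted p = 0.00556, fold 0.827). Tuba1b, at 598, 587 and 592 RPKM in MFN2-R94Q against 666, 693 and 661 RPKM in nTg, varied little within MFN2-R94Q. Its log2 fold change was -0.18 (SE 0.040, adjusted p = 0.00974). Tuba4a, the isotype without an encoded final tyrosine, which in humans has been linked to amyotrophic lateral sclerosis, had 158, 144 and 157 RPKM in MFN2-R94Q against 180, 183 and 177 RPKM in nTg, a difference of -0.23 in log2 (SE 0.0422, adjusted p = 0.00455). Summed over the alphas, the level was 1302 ± 59.2 RPKM in MFN2-R94Q and 1524 ± 31.4 RPKM in nTg (SD, n = 3 each).

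Among the beta isotypes, Tubb2b had the lowest fold. Tubb2b, whose human mutations disturb cortical development, had 45.7, 39.2 and 48.4 RPKM in MFN2-R94Q, against 64.8, 63.2 and 63.9 RPKM in nTg. Its log2 fold change was -0.53 (SE 0.0591, adjusted p = 0.000908), which is a fold of 0.694 with a 95% interval from 0.636 to 0.759, and it ranked 11 of 14347 genes by p in this comparison. Its near-identical neighbour Tubb2a had 229, 237 and 233 RPKM in MFN2-R94Q against 271, 278 and 256 RPKM in nTg. The log2 fold change of Tubb2a was -0.20 (SE 0.0437, adjusted p = 0.00956), and its 95% interval, -0.30 to -0.11, does not meet that of Tubb2b, -0.65 to -0.40.

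Tubb4b, expressed in most tissues and enriched in ciliated cells, had 212, 192 and 211 RPKM in MFN2-R94Q against 253, 259 and 236 RPKM in nTg, a difference of -0.28 in log2 (SE 0.0476, adjusted p = 0.00339). Tubb4a had 470, 370 and 445 RPKM in MFN2-R94Q, against 490, 515 and 529 RPKM in nTg. Its lowest library was MFN2-R94Q replicate 2, and its log2 fold change was -0.26 (SE 0.0697, adjusted p = 0.023). Tubb3, at 290, 308 and 311 RPKM in MFN2-R94Q against 330, 347 and 332 RPKM in nTg, differed by -0.15 on the log2 scale (SE 0.0402, adjusted p = 0.0232). In Tubb3 replicate 1 and not replicate 2 was the lowest MFN2-R94Q library. Tubb6 had 4.675, 4.595 and 4.885 RPKM in MFN2-R94Q against 5.325, 5.686 and 5.376 RPKM in nTg, a difference of -0.19 in log2 (SE 0.0539, adjusted p = 0.028). Tubb5, the main beta isotype of dividing cells, had 132, 129 and 131 RPKM in MFN2-R94Q against 141, 142 and 139 RPKM in nTg. It did not pass the test: its log2 fold change was -0.11 (95% interval -0.19 to -0.03, adjusted p = 0.0563). Summed over the betas, the level was 1349 ± 59.8 RPKM in MFN2-R94Q and 1575 ± 30.3 RPKM in nTg (SD, n = 3 each).

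Set against the nTg means gene by gene, all 10 isotypes were below 1 in each MFN2-R94Q library, with medians of 0.871, 0.821 and 0.871. Tubb2b was the lowest member in all 3, at 0.714, 0.613 and 0.757. Without MFN2-R94Q replicate 2, 8 isotypes were called lower, where 6.98% of all tested genes were. The log2 fold change of Tubb2b was then -0.44 (SE 0.0374, adjusted p = 7.59e-05). The call of Tubb6 was lost without that library (adjusted p = 0.0735) and Tubb4a shrank to -0.16 (SE 0.0464, adjusted p = 0.0427), over 1.5 times closer to 0. The calls of Tubb3, Tubb4a and Tubb6 were also lost without nTg replicate 2 (adjusted p = 0.0931, 0.0699 and 0.102), those of Tubb4a and Tubb6 without nTg replicate 3 (0.0743 and 0.0558), and those of Tubb3 and Tubb6 without MFN2-R94Q replicate 1 (0.0612 and 0.051).

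**Figure D2:**
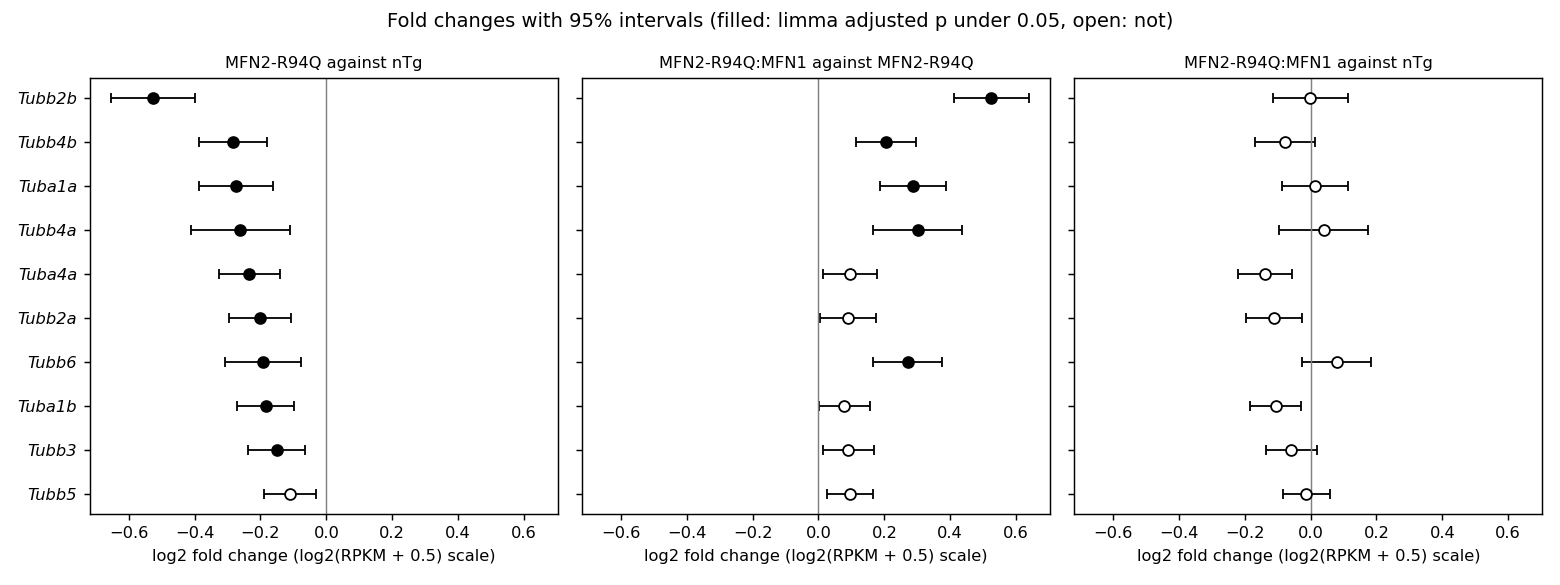
Log2 fold change of each isotype in the 3 comparisons, from the limma fit on log2(RPKM + 0.5), with bars for the 95% interval; filled points passed an adjusted p of 0.05. Tubb2b lies farthest from 0 in both comparisons that involve MFN2-R94Q alone, at -0.53 for MFN2-R94Q against nTg and 0.53 for MFN2-R94Q:MFN1 against MFN2-R94Q, while its interval spans 0 in the comparison of MFN2-R94Q:MFN1 with nTg.

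Comparison of MFN2-R94Q:MFN1 with MFN2-R94Q asks how mice with MFN1 added to the mutant differ from mice with the mutant alone. Without a group that carries a control transgene beside the mutant, effects of MFN1 and of a further transgene cannot be told apart. Tuba1a, Tubb2b, Tubb4a, Tubb4b and Tubb6 rose and none of the other isotypes passed the test, in either direction. Of all tested genes, 9.55% were called higher and 3.33% lower, 12.9% in all. The median log2 fold change was 0.15 over the isotypes and 0.012 over all tested genes. This comparison rests on the same 3 MFN2-R94Q libraries as the one above, so the values of each are given side by side and are not independent.

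Tubb2b had 62.6, 64.6, 61.7, 65.1 and 65.7 RPKM in MFN2-R94Q:MFN1, against 45.7, 39.2 and 48.4 RPKM in MFN2-R94Q. The lowest MFN2-R94Q:MFN1 library was well above the highest MFN2-R94Q library. The log2 fold change was 0.53 (SE 0.0528, adjusted p = 0.000253), a fold of 1.44 (95% interval 1.33 to 1.56). Tuba1a, at 651, 698, 664, 681 and 696 RPKM in MFN2-R94Q:MFN1 against 593, 505 and 572 RPKM in MFN2-R94Q, differed by 0.29 on the log2 scale (SE 0.0465, adjusted p = 0.00339). Tubb4a had 501, 535, 522, 550 and 519 RPKM in MFN2-R94Q:MFN1 against 470, 370 and 445 RPKM in MFN2-R94Q, a difference of 0.30 in log2 (SE 0.0624, adjusted p = 0.0105). No MFN2-R94Q library of these genes reached the lowest MFN2-R94Q:MFN1 library. Tubb4b, at 236 ± 7.48 RPKM in MFN2-R94Q:MFN1 (SD, n = 5) and 205 ± 11.6 RPKM in MFN2-R94Q (SD, n = 3), differed by 0.21 on the log2 scale (SE 0.0425, adjusted p = 0.0105). Tubb6, at 5.80 ± 0.297 RPKM in MFN2-R94Q:MFN1 (SD, n = 5) and 4.72 ± 0.150 RPKM in MFN2-R94Q (SD, n = 3), differed by 0.27 on the log2 scale (SE 0.0482, adjusted p = 0.00521).

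The isotypes that did not pass had log2 fold changes between 0.08 and 0.10. Tuba1b had 0.08 (adjusted p = 0.168), Tubb2a 0.09 (0.146), Tubb3 0.09 (0.111), Tuba4a 0.10 (0.111) and Tubb5 0.10 (0.0726). Their 95% intervals ended at 0.18 or below, so that rises as large as that of Tubb4b lie outside them. In 6 isotypes, the 5 called and Tubb5, every MFN2-R94Q:MFN1 library was above every MFN2-R94Q library, which held for 13.1% of tested genes. The exact two-sided permutation p was 0.0357 for each of the 6, the smallest that 5 against 3 allow. Without MFN2-R94Q:MFN1 replicate 3, the library with the higher Prx, 6 were called higher, Tubb5 being added (adjusted p = 0.0378). In that fit 1487 of all genes were called in either direction, against 1848 in the main fit. Without MFN2-R94Q replicate 2 the count called higher was again 5, all at smaller size: Tubb2b differed by 0.44 on the log2 scale (SE 0.0343, adjusted p = 4.17e-05), Tuba1a 0.22 (SE 0.0367, adjusted p = 0.00472), Tubb4a 0.20 (SE 0.0425, adjusted p = 0.0168), Tubb6 0.25 (SE 0.054, adjusted p = 0.017) and Tubb4b 0.16 (SE 0.0401, adjusted p = 0.0376). Of all tested genes, 5.08% were called higher in that fit.

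Comparison of MFN2-R94Q:MFN1 with nTg asks what remains when both proteins are present. By limma, 0 isotypes passed the test, where 2.31% of all tested genes did, 0.223% lower and 2.09% higher. The unadjusted p was under 0.05 in 3 isotypes, Tuba1b, Tuba4a and Tubb2a, each with a value under 0 on the log2 scale. The median log2 fold change was -0.04 over the isotypes and 0.0083 over all tested genes. Tubb2b averaged 63.9 ± 1.71 RPKM in MFN2-R94Q:MFN1 (SD, n = 5) and 64.0 ± 0.763 RPKM in nTg (SD, n = 3), with a 95% interval of the log2 difference from -0.12 to 0.11. Tuba1a averaged 678 ± 20.3 RPKM in MFN2-R94Q:MFN1 (SD, n = 5) and 672 ± 11.3 RPKM in nTg (SD, n = 3), with an interval from -0.09 to 0.11.

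Tuba4a came closest to the threshold. It had 166, 169, 158, 157 and 167 RPKM in MFN2-R94Q:MFN1, against 180, 183 and 177 RPKM in nTg, so the groups did not overlap. The log2 fold change was -0.14 (95% interval -0.22 to -0.06, adjusted p = 0.089), and without MFN2-R94Q replicate 2, which enters through the shared estimate of spread, it passed (adjusted p = 0.0226). Tuba1b, at 630, 640, 596, 604 and 658 RPKM in MFN2-R94Q:MFN1 against 666, 693 and 661 RPKM in nTg, did not overlap either; the log2 fold change was -0.11 (95% interval -0.18 to -0.03, adjusted p = 0.171). Groups that lay apart in this direction made up 5.05% of tested genes, and the exact two-sided permutation p was 0.0357 for both. Tubb2a had 246, 260, 235, 243 and 258 RPKM in MFN2-R94Q:MFN1 against 271, 278 and 256 RPKM in nTg, which overlap, and a log2 fold change of -0.11 (95% interval -0.20 to -0.03, adjusted p = 0.187). The remaining 5 isotypes had log2 fold changes from -0.08 in Tubb4b to 0.08 in Tubb6, with adjusted p between 0.416 and 0.879.

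The make-up of the tubulin pool was described by the share of each isotype in the summed RPKM of its class, which does not depend on scaling between libraries. Tubb2b made up 4.15% ± 0.0445 of the betas in MFN2-R94Q:MFN1, 3.29% ± 0.215 in MFN2-R94Q and 4.06% ± 0.122 in nTg (SD, n = 5, 3 and 3). Its 3 MFN2-R94Q libraries, at 3.07% to 3.50%, lay under all others. Tubb5 made up 9.04% ± 0.151 in MFN2-R94Q:MFN1, 9.68% ± 0.321 in MFN2-R94Q and 8.93% ± 0.103 in nTg, and here the MFN2-R94Q libraries lay above all others. No other isotype had a share range in MFN2-R94Q that was apart from both other groups. Tubb4a held the largest share of the betas, 34.1% ± 0.944 in MFN2-R94Q:MFN1, 31.7% ± 2.55 in MFN2-R94Q and 32.5% ± 1.25 in nTg, followed by Tubb3 with 20.9% ± 0.189, 22.5% ± 1.56 and 21.3% ± 0.183 in the same groups. Of the alphas, Tuba1a held 46.2% ± 0.882 in MFN2-R94Q:MFN1, 42.7% ± 1.62 in MFN2-R94Q and 44.1% ± 0.213 in nTg, and Tuba1b 42.6% ± 0.742, 45.5% ± 1.70 and 44.2% ± 0.253. With MFN2-R94Q replicate 2 left out, the mean shares in MFN2-R94Q were 3.40% for Tubb2b, 9.49% for Tubb5, 33.1% for Tubb4a, 21.7% for Tubb3, 43.6% for Tuba1a and 44.6% for Tuba1b. The mean share of Tubb4a was then above that in nTg and not below it.

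**Figure D3:**
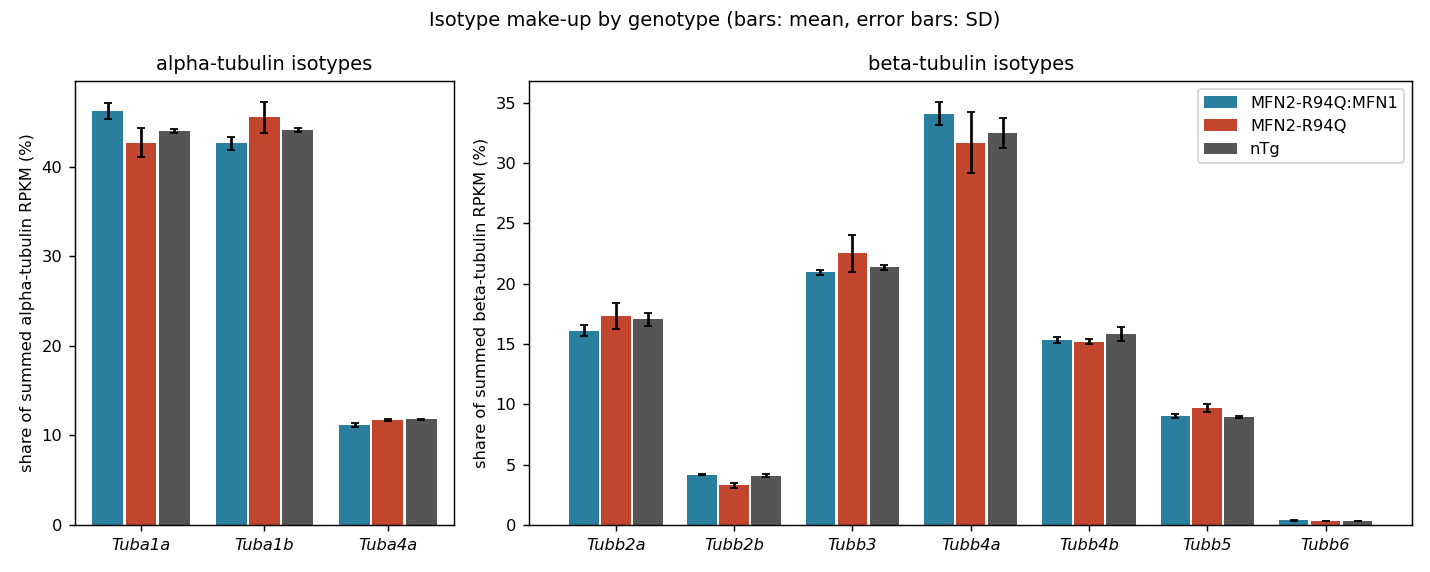
Share of each isotype in the summed RPKM of the 3 alpha isotypes (left) and the 7 beta isotypes (right), in percent, for MFN2-R94Q:MFN1 (n = 5), MFN2-R94Q (n = 3) and nTg (n = 3); bars are means and error bars SDs. Tubb2b takes 3.29% of the betas in MFN2-R94Q, against 4.06% in nTg, while the larger isotypes keep their order in each group apart from Tuba1a and Tuba1b.

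Ratios within a library show the same data without the other members; they were chosen after the values had been seen and are given as a description. Tubb2b over Tubb2a was 0.258 ± 0.00799 in MFN2-R94Q:MFN1, 0.191 ± 0.0225 in MFN2-R94Q and 0.239 ± 0.0108 in nTg (SD). The MFN2-R94Q values of 0.200, 0.165 and 0.208 lay under all nTg values, which ran from 0.228 to 0.250. Tuba1a over Tuba1b was 1.034 to 1.129 in MFN2-R94Q:MFN1, 0.861 to 0.992 in MFN2-R94Q and 0.987 to 1.007 in nTg, so MFN2-R94Q:MFN1 lay above both other groups, while MFN2-R94Q and nTg overlapped. The uncertain split of reads within each pair touches both ratios. Summed alpha over summed beta was 0.952 ± 0.0174 in MFN2-R94Q:MFN1, 0.965 ± 0.0119 in MFN2-R94Q and 0.968 ± 0.00776 in nTg, and the ranges of the 3 groups overlapped.

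**Figure D4:**
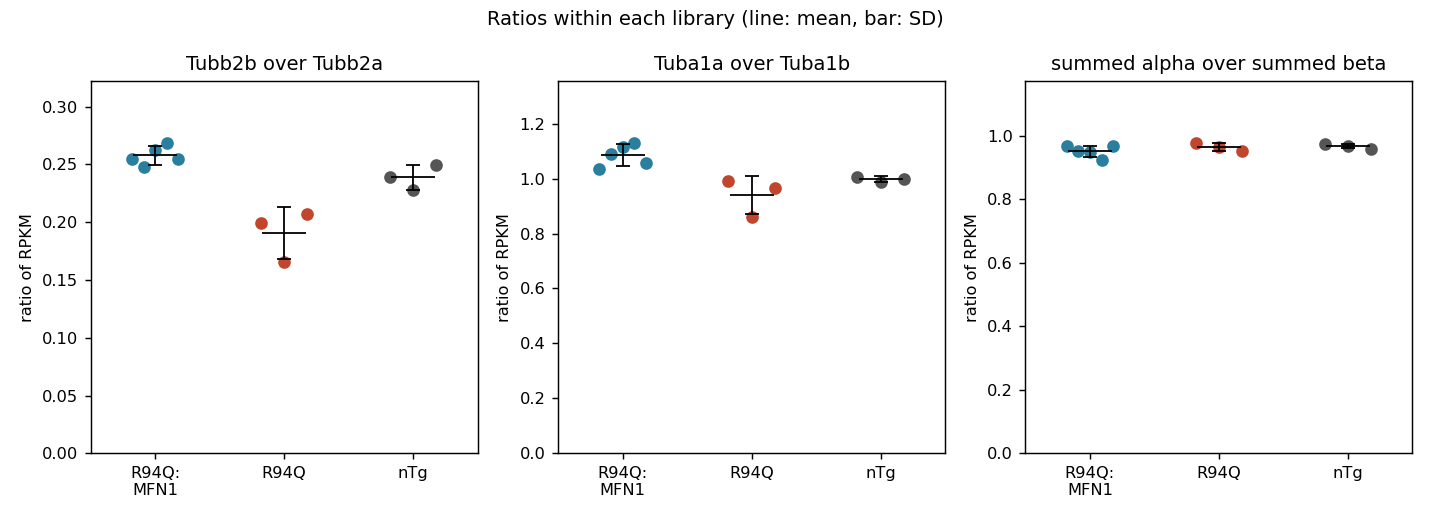
Ratios of RPKM within each library for Tubb2b over Tubb2a, Tuba1a over Tuba1b, and summed alpha over summed beta isotypes, in MFN2-R94Q:MFN1 (R94Q:MFN1, n = 5), MFN2-R94Q (R94Q, n = 3) and nTg (n = 3); points are libraries, lines means and error bars SDs. Tubb2b over Tubb2a is lowest in MFN2-R94Q, at 0.165 to 0.208, while alpha over beta stays between 0.924 and 0.977 in all 11 libraries.

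The window around the gene start is shown for Tuba1a, Tubb4a and Tubb4b. Like Tubb2b and Tubb6, these fell in MFN2-R94Q against nTg and rose in MFN2-R94Q:MFN1 against MFN2-R94Q. Tubb2b had no promoter entry, and the window of Tubb6 is not shown. Each line runs 5′ to 3′ on the gene's own strand from 250 bases before to 50 bases after the start, from RefSeq (GRCm38.p6), with TATAA on either strand in capitals. Tuba1a is chr15:98953452-98953751, Tubb4a chr17:57087551-57087850 and Tubb4b chr2:25224653-25224952, all on the minus strand.
Tuba1a: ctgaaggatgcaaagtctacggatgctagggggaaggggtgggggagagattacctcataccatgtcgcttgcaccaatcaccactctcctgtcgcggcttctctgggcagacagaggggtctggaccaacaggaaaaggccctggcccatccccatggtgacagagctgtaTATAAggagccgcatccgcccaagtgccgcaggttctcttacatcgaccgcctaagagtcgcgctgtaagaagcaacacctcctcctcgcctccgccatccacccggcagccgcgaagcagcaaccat
Tubb4a: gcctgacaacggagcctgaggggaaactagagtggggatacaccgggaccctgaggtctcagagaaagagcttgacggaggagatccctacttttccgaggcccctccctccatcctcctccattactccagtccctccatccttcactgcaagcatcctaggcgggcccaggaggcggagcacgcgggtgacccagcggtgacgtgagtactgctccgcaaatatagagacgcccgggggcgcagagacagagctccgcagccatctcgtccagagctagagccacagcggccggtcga
Tubb4b: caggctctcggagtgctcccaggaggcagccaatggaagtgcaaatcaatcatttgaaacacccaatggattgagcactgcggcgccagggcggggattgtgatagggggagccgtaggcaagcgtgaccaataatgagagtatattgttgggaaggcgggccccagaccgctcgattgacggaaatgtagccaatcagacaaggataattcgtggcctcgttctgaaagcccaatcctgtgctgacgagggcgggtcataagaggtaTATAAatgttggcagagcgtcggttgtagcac
TATAA, searched on both strands, begins at position -78 in Tuba1a and at 18 in Tubb4b, counted from the gene start, and is not in these 300 bases of Tubb4a. Of the 8 isotypes searched, 5 hold TATAA, against 24.9% of 32851 promoters of the same length. CCAAT is in 4 of the 8, against 37.4% of promoters, and GGGCGG in 7 of the 8, against 35.7%, each on either strand; none of the 3 motifs contains another. Tubb4a holds none of the 3. Members with and without TATAA are thus both found among those that fell in MFN2-R94Q.

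Genes that act on tubulin were taken by list. Their counts are to be read against all 14347 genes tested. Of those, 10.4% were called lower and 7.5% higher in MFN2-R94Q against nTg. In MFN2-R94Q:MFN1 against MFN2-R94Q, 9.55% were called higher and 3.33% lower. In MFN2-R94Q:MFN1 against nTg, 2.09% were called higher and 0.223% lower. Of 10 other tubulin genes, 6 were tested, and 2 fell in MFN2-R94Q against nTg: Tubg1, the gamma-tubulin that nucleates microtubules (24.2 ± 0.621 against 26.7 ± 0.84 RPKM, log2 fold change -0.14, adjusted p = 0.034), and Tubd1, delta-tubulin of centrioles (1.58 ± 0.114 against 2.24 ± 0.202 RPKM, -0.40, adjusted p = 0.015; SD, n = 3 each). None of the 6 passed in the other comparisons. The alpha genes Tuba1c and Tuba8 were at 0.319 to 0.746 and 3.43 to 4.20 RPKM over all libraries, far under the members of their class, although the level of Tuba1c depends on the same read assignment as Tuba1a and Tuba1b, and Tuba3a, Tuba3b, Tubal3 and Tubb1 stayed under the filter. Tubulin folding genes, 24 in all, code for the chaperonin, prefoldin and the cofactors that join alpha to beta. In MFN2-R94Q against nTg, Tbce (log2 fold change 0.22, adjusted p = 0.016) and Tbcel (0.13, adjusted p = 0.038) rose and Arl2, the GTPase that works with the cofactors, fell (60.5 ± 1.92 against 69.4 ± 1.10 RPKM, -0.20, adjusted p = 0.013). Arl2 rose in MFN2-R94Q:MFN1 against MFN2-R94Q (0.21, adjusted p = 0.0085), the only gene of the folding list that passed there. Tbcel no longer passed with MFN2-R94Q replicate 2 left out (adjusted p = 0.095). The median log2 fold change of the folding list in MFN2-R94Q against nTg was 0.0194, against -0.00241 over all tested genes.

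Of 24 tested genes of enzymes that modify tubulin, 5 fell and 1 rose in MFN2-R94Q against nTg, and 5 rose and 0 fell in MFN2-R94Q:MFN1 against MFN2-R94Q. The shares over all tested genes were 10.4% lower and 7.5% higher in the first comparison. They were 9.55% higher and 3.33% lower in the second. Atat1, which acetylates alpha-tubulin inside the microtubule, had 13.3 ± 1.13 RPKM in MFN2-R94Q and 17.4 ± 0.559 RPKM in nTg, a log2 fold change of -0.38 (adjusted p = 0.0026). In MFN2-R94Q:MFN1 it had 16.5 ± 0.501 RPKM, 0.31 above MFN2-R94Q on the log2 scale (adjusted p = 0.0031). Ttl, which puts back the final tyrosine of alpha-tubulin, had log2 fold changes of -0.22 in MFN2-R94Q against nTg (adjusted p = 0.0082) and 0.16 in MFN2-R94Q:MFN1 against MFN2-R94Q (adjusted p = 0.022). Ttll5, a glutamylase, had -0.37 (adjusted p = 0.01) and 0.29 (adjusted p = 0.023) in the same comparisons, and Ttll12, of the same family, -0.35 (adjusted p = 0.0031) and 0.21 (adjusted p = 0.019). By limma 0 of the 24 passed in MFN2-R94Q:MFN1 against nTg. With MFN2-R94Q replicate 2 left out, 4 fell and 0 rose in MFN2-R94Q against nTg, and 2 rose in MFN2-R94Q:MFN1 against MFN2-R94Q, where the calls of Ttll12 and Ttl were lost (adjusted p = 0.076 and 0.069). In that fit 6.98% of all tested genes were called lower and 4.31% higher in MFN2-R94Q against nTg. The share called higher in MFN2-R94Q:MFN1 against MFN2-R94Q was 5.08%. Ttll5 then had -0.24 and 0.16 (adjusted p = 0.006 and 0.035). The median log2 fold change of the list was -0.0532 in MFN2-R94Q against nTg and 0.0593 in MFN2-R94Q:MFN1 against MFN2-R94Q.

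Genes of microtubule binding and dynamics went both ways: 9 of 37 fell and 4 rose in MFN2-R94Q against nTg, and 7 rose and 3 fell in MFN2-R94Q:MFN1 against MFN2-R94Q. Over all tested genes the shares were 10.4% lower and 7.5% higher in the first comparison. In the second they were 9.55% higher and 3.33% lower. Among those with the smallest p, Map7, which recruits kinesin-1 to microtubules (log2 fold change 0.24, adjusted p = 0.0033), Camsap2, which caps minus ends (0.25, adjusted p = 0.0035), and Clip1, which follows plus ends (0.18, adjusted p = 0.0093), rose in MFN2-R94Q against nTg. Mapre2, another plus-end protein, fell (-0.16, adjusted p = 0.011). Clip1 (-0.18, adjusted p = 0.0085) and Camsap2 (-0.18, adjusted p = 0.012) fell in MFN2-R94Q:MFN1 against MFN2-R94Q. Stmn4, a stathmin that binds tubulin dimers (108 ± 5.0 against 81.8 ± 12.9 RPKM, 0.41, adjusted p = 0.0073), and Map6d1 (0.49, adjusted p = 0.01), a relative of the stabiliser Map6, rose there. Dpysl2, which binds tubulin dimers in growing axons, was the 1 gene of the list that passed in MFN2-R94Q:MFN1 against nTg, and it fell (36.5 ± 1.61 against 42.2 ± 1.36 RPKM, -0.21, adjusted p = 0.019). Of 23 tested genes of severing and nucleation, 3 fell and 2 rose in MFN2-R94Q against nTg, among them Katnal2 (-0.33, adjusted p = 0.038), a relative of the severing enzyme katanin, and Haus8 (-0.30, adjusted p = 0.018), a subunit of augmin. Haus6, also of augmin (0.21, adjusted p = 0.034), and Tubgcp2, of the gamma-tubulin complex (0.21, adjusted p = 0.032), rose. The counts of this list, too, are to be read against the 10.4% lower and 7.5% higher over all tested genes. By limma 0 of the 23 passed in the other comparisons. When MFN2-R94Q replicate 2 was left out, 0 of the 23 passed in MFN2-R94Q against nTg either, with adjusted p of 0.11 for Katnal2, 0.056 for Haus8, 0.067 for Haus6 and 0.1 for Tubgcp2. Of the binding and dynamics list, 7 fell and 3 rose in MFN2-R94Q against nTg without it, and 3 rose and 3 fell in MFN2-R94Q:MFN1 against MFN2-R94Q, where Stmn4 had 0.27 (adjusted p = 0.0026) and Map6d1 0.32 (adjusted p = 0.011). Over all tested genes 6.98% were then called lower and 4.31% higher in MFN2-R94Q against nTg. In MFN2-R94Q:MFN1 against MFN2-R94Q, 5.08% were called higher and 1.08% lower.

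Most cell type lists had more markers that fell than rose in MFN2-R94Q against nTg. Among astrocyte, microglia and injured neuron genes, as many rose as fell. The counts are to be read against the 10.4% of all tested genes that were called lower and the 7.5% called higher. In MFN2-R94Q against nTg, 7 of 14 oligodendrocyte and myelin markers fell and 1 rose, and their summed level was 3955 to 4477 RPKM in MFN2-R94Q and 4750 to 5167 RPKM in nTg. Of 8 precursor markers 4 fell and 2 rose (202.8 to 256.0 against 292.9 to 344.3 RPKM). Of 14 neuron markers, among them the neurofilament genes, 4 fell and 1 rose (4052 to 4344 against 4587 to 4718 RPKM), and of 10 motor neuron markers 6 fell (236.3 to 237.0 against 242.9 to 246.1 RPKM). Of 10 endothelial and mural markers 4 fell and 1 rose, and of 8 ependymal markers 2 fell. Of the 5 tested of 8 Schwann cell markers, 2 fell and 1 rose, and their sum was 50.98 to 71.82 RPKM in MFN2-R94Q and 81.65 to 90.41 RPKM in nTg; the list holds Sox10, which oligodendrocytes also express, and the defining Schwann cell gene Prx was at most 0.131 RPKM in MFN2-R94Q and 0.130 RPKM in nTg. Of 10 astrocyte markers 2 fell and 2 rose, of 12 microglia markers 1 fell and 1 rose, and of 10 injured neuron genes 2 fell and 2 rose. Without MFN2-R94Q replicate 2, 6.98% of all tested genes were called lower and 4.31% higher. In that fit 5 myelin, 4 precursor, 4 neuron and 5 motor neuron markers fell, and 1 myelin and 1 precursor marker rose. Endothelial and mural (3), ependymal (3), Schwann cell (1), astrocyte (1) and injured neuron (2) genes also fell. Astrocyte (2), microglia (1), endothelial and mural (1) and injured neuron (1) genes rose. The myelin sum was then 4260 to 4477 RPKM in MFN2-R94Q. The part of any of these in the isotype levels was not tested.

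With MFN1 added to MFN2-R94Q, 9 of the 14 oligodendrocyte and myelin markers rose and 0 fell, with sums of 4925 to 5247 RPKM and 3955 to 4477 RPKM, where 9.55% of all tested genes were called higher and 3.33% lower. All 12 microglia markers rose (347.2 to 394.3 against 249.3 to 269.8 RPKM), as did 4 of the 10 astrocyte markers, with 1 that fell. Of the neuron markers 3 rose and 1 fell, and the sums were 4345 to 4474 RPKM in MFN2-R94Q:MFN1 and 4052 to 4344 RPKM in MFN2-R94Q. Of the motor neuron list 1 rose, of the precursors 2, of the endothelial and mural list 4, of the ependymal list 3, of the Schwann cell list 3 and of the injured neuron list 2, with none that fell. Against nTg, 9 of 12 microglia markers rose in MFN2-R94Q:MFN1 (347.2 to 394.3 against 237.8 to 249.9 RPKM), where 2.09% of all tested genes were called higher and 0.223% lower. There 1 astrocyte marker, 1 endothelial and mural marker and 2 injured neuron genes also rose, and 1 motor neuron marker fell. In the fit that left out MFN2-R94Q replicate 2, where 5.08% of all tested genes were called higher and 1.08% lower, 7 myelin and 12 microglia markers rose against MFN2-R94Q and 0 of the endothelial and mural list did. Against nTg, where 3.34% of all tested genes were then called higher and 0.775% lower, 10 microglia, 2 astrocyte and 2 myelin markers rose. In the same fit 2 neuron, 2 motor neuron and 1 myelin marker fell. As above, their part in the isotype levels was not tested.

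Genes with the pattern most like each called isotype were found by the root mean square difference of centred log2(RPKM + 0.5) over the 11 libraries, MFN2-R94Q replicate 2 included. For Tubb2b, which varied most (SD 0.244 on this scale), they were Nid1 at 0.0534, Micall1 at 0.0611 and Hcn2 at 0.0626. For Tuba1a (SD 0.139) they were Spg20 at 0.0239, Enoph1 at 0.0319 and Chchd3 at 0.0321, and for Tubb4a (SD 0.154) Cxxc5 at 0.0354, Plekhh1 at 0.0376 and Ppp2r5a at 0.0409. For Tubb4b (SD 0.121) they were Baalc, Pgpep1 and Tmem106c at 0.0254 to 0.0317, and for Tubb6 (SD 0.122) Paqr6, Rftn1 and Ly6e at 0.0506 to 0.0527. Tuba1b (SD 0.0788) was most like Apbb1, Slc27a4 and its fellow member Tubb2a, at 0.0281 to 0.0291, the 1 case in which an isotype was among the nearest genes of another. Tuba4a (SD 0.0977) was nearest to Ostc, Wdr24 and Rimkla at 0.0255 to 0.0281, Tubb2a (SD 0.0881) to Msrb3, Dctn3 and Raly at 0.0197 to 0.0285, and Tubb3 (SD 0.0693) to Slc35a2, Txn2 and Aldoa at 0.0132 to 0.0197.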

How the data were processed

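Poly(A) RNA libraries were made with a stranded TruSeq kit and sequenced, per the labels' protocols. The authors deposited 1 table of RPKM values, with 1 column for each of 11 libraries. The submitters' processing notes name the build mm10 and the tools Partek 7.17.0918 and TopHat, the last without a version; how multiply matching reads and strand were handled, and which annotation served, is not given in the sources used here. Libraries were treated as 1 mouse each, since the design gives n in mice, and p-values measure the spread between these libraries. Within groups, the SD of the log2 difference between libraries was 0.126 to 0.238, so no library was counted as a duplicate. Replicate numbers follow the order of the records and pair nothing. Depth was recovered from values of at most 5 reads, in RefSeq genes of up to 160 bases; depending on the library, 91.8% to 98.6% of them were whole to within 0.02.

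Levels were tested as log2(RPKM + 0.5) by lmFit, contrasts.fit and eBayes with a trend (limma 3.58.1, R 4.3.3), in 1 fit of all 11 libraries. It covered the 14347 genes that reached 0.5 RPKM in 3 libraries or more, with two-sided tests and Benjamini-Hochberg adjustment over all of them at 0.05. Fold changes are on that log2 scale, first group minus second, and understate the change of low genes. Exact permutation tests used scipy 1.17.1. The limma step was tested on simulated data. The 10 members and the 15 lists, of 225 symbols, were chosen with earlier results of these data known. The text names all members, up to 4 genes with the smallest p per list and comparison, for lists of genes that act on tubulin, and the 3 genes most like each called isotype; some genes that this rule takes, such as single cell type markers, are given only as counts. Sequences came from GENCODE M21 and RefSeq GRCm38.p6. Alternatives, 21 per comparison, covered the pseudocount (0.1 and 1), the filter, the scaling, the groups in the fit, library weights, robust eBayes, a length and GC correction that reached 96.8% of tested genes (loess, span 0.5), and each library left out in turn. Some sequences and a marker gene are not reported here.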

Additional observations from a re-analysis of the deposited data

How the results depend on the processing

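Over the 21 alternatives, 6 to 10 isotypes were lower in MFN2-R94Q against nTg, and Tuba1a, Tuba1b, Tuba4a, Tubb2a, Tubb2b and Tubb4b were called in all 21; Tubb3 was called in 18, Tubb4a and Tubb6 in 15 and Tubb5 in 2. The log2 fold change of Tubb2b ran from -0.59 to -0.42. Quantile normalization left 8, where 2545 of all genes were called in either direction. No filter left 8 (1948 of all genes), the length and GC correction 7 (2613) and the fit of the 2 groups alone 6 (846). In MFN2-R94Q:MFN1 against MFN2-R94Q, Tuba1a, Tubb2b, Tubb4a, Tubb4b and Tubb6 were called in all 21; library weights, which gave MFN2-R94Q replicate 3 a weight of 5.19 and replicate 2 a weight of 0.229, raised the count to 8. In MFN2-R94Q:MFN1 against nTg, Tuba4a was called lower, making 1 isotype, with library weights and with the 2 groups alone (adjusted p = 0.032 in each; 0.0226 to 0.302 over all alternatives). Without MFN2-R94Q:MFN1 replicate 3, 10 isotypes were lower in MFN2-R94Q against nTg, Tubb5 being added (adjusted p = 0.0417), where 2332 of all genes were called in either direction. Leaving out each library in turn gave 6 to 10 isotypes lower in that comparison. It gave 5 to 6 higher in MFN2-R94Q:MFN1 against MFN2-R94Q, the 6 again with Tubb5 (adjusted p = 0.0378), and 0 to 1 lower in MFN2-R94Q:MFN1 against nTg.

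The count of all genes called moved more. It was 2561 in MFN2-R94Q against nTg, 846 with the 2 groups alone and 1213 to 2857 with a library left out, the lowest without nTg replicate 2. In MFN2-R94Q:MFN1 against MFN2-R94Q it was 1848, 1179 with no filter, 3378 with library weights and 882 to 2217 with a library left out, the lowest without MFN2-R94Q replicate 2. In MFN2-R94Q:MFN1 against nTg it was 332, 566 with the 2 groups alone, 590 with library weights and 189 to 589 with a library left out. Small differences near 0 in MFN2-R94Q:MFN1 against nTg changed sign. Tubb2b ran from -0.01078 to 0.01168 with a library left out and became 0.0215 with quantile normalization; the value was positive without nTg replicate 1 and without MFN2-R94Q:MFN1 replicates 1 and 3. Tubb5 became 0.002085 with quantile normalization and ran from -0.02939 to 0.005311 with a library left out, positive without MFN2-R94Q:MFN1 replicate 3, and Tuba1a became -0.006563 with equal medians. The causes were not tested. Adding other tubulins to the sum moved the mean share of each isotype in each group by less than its SD. In groups of this size, leaving out a library cannot move a mean by a whole SD, so that yardstick decides nothing there. Without MFN2-R94Q replicate 2, the mean share of Tubb4a in MFN2-R94Q went from 31.69% to 33.06%, against 32.47% in nTg. List counts without MFN2-R94Q replicate 2 were added after the data were seen. No paired analysis was possible because the replicate numbers only follow the order of the records. Depth limits Tubb6 most, and the sharing of windows limits Tuba1a, Tuba1b, Tubb2a, Tubb2b and Tubb4b.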

Other observations

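Tubb4a over Tubb3, the isotype abundant in oligodendrocytes over that of neurons, was 1.63 ± 0.0581 in MFN2-R94Q:MFN1 (SD, n = 5), 1.418 ± 0.21 in MFN2-R94Q (SD, n = 3) and 1.522 ± 0.0635 in nTg (SD, n = 3). The MFN2-R94Q libraries were at 1.622, 1.203 and 1.43, so replicate 2 was lowest and replicate 1 lay above every nTg library, the highest of which was at 1.595. The ratio was chosen after the values were seen. Gfap, the intermediate filament of reactive astrocytes, rose in both transgenic groups, at 465.1 ± 21.5 RPKM in MFN2-R94Q:MFN1 and 392.0 ± 28.8 RPKM in MFN2-R94Q, against 273.9 ± 16.0 RPKM in nTg (log2 fold change 0.76, adjusted p = 4.4e-06 by limma, and 0.52, adjusted p = 0.001). The astrocyte list as a whole was split: of its 10 markers, 2 rose and 2 fell in MFN2-R94Q against nTg. Those that fell were S100b (-0.35, adjusted p = 0.0031) and Gja1 (-0.15, adjusted p = 0.041). Over all tested genes 7.5% were called higher and 10.4% lower there. Sprr1a, which neurons express after injury, was also higher in both transgenic groups, at 1.88 ± 0.874 RPKM in MFN2-R94Q:MFN1 and 1.48 ± 0.105 RPKM in MFN2-R94Q, against 0.101 ± 0.0398 RPKM in nTg (adjusted p = 0.00025 and 0.0026 by limma). Its nTg level lies under the 0.5 RPKM of the filter. Of the 10 tested injured neuron genes, 2 rose and 2 fell in MFN2-R94Q against nTg. Those that fell were Jun (log2 fold change -0.37, adjusted p = 0.013) and Stmn4 (-0.29, adjusted p = 0.035).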
